A study of Arabidopsis thaliana with 36 samples.

Results

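The phosphate starvation and uptake genes described here are 39 Arabidopsis thaliana loci, taken by locus code from the 34218 features of the count and FPKM tables. They fall into 10 signalling genes, 10 uptake genes, 9 genes of phosphatases and phosphate recycling, and 10 genes of membrane lipid remodelling. All 39 loci were found in both tables. Of these, 36 had enough counts to be tested in roots and 28 in shoots.

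Plants short of phosphate switch on a common set of genes through the transcription factor PHR1 and its relative PHL1, which bind a short promoter element named P1BS. SPX proteins hold PHR1 back when phosphate is plentiful, and microRNA miR399 destroys the mRNA of PHO2, an enzyme that removes phosphate transporters, when it is scarce. The non-coding RNAs IPS1 and At4 imitate the miR399 target and draw the microRNA away from PHO2. Transporters of the PHT1 family then take up phosphate, secreted and vacuolar acid phosphatases free it from organic compounds, and galactolipids and sulfolipids replace phospholipids in membranes. NLP7 and NLP2 are transcription factors of the nitrate response, and nitrate supply is known to influence the phosphate response in Arabidopsis.

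RNA was sequenced from roots and from shoots (rosettes) of 42-day-old plants. There were 6 genotypes and 36 libraries, 3 biological replicates for each pair of genotype and tissue. The wild types were Col-0 and Col-4. The mutants were nlp2-2 and nlp2-3, which carry different alleles of NLP2, nlp7-1, which carries an allele of NLP7, and the double mutant nlp2-3 nlp7-1. All plants shared 1 growth regime, in sand with 5 mM nitrate, a supply the labels describe as not limiting, under 8 h of light at 21 °C and 16 h of dark at 18 °C. The phosphate supply is not given in the sources used here. The parent line of each mutant is not given in the labels: nlp2-2 was set against Col-4, and nlp2-3, nlp7-1 and the double mutant against Col-0, so those 3 comparisons share their control libraries.

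Root libraries held 1.84e+07 to 2.85e+07 counts and shoot libraries 1.82e+07 to 3.17e+07. Replicates of a group correlated at r of 0.982 to 0.99 across genes. NLP2 in roots averaged 55.4 counts per 1e+06 counts of the library (CPM) in Col-4 and 18.1 in nlp2-2, and 65.8 in Col-0, 36.8 in nlp2-3 and 49.4 in the double mutant. NLP7 in roots averaged 103 CPM in Col-0, 35.1 in nlp7-1 and 41.3 in the double mutant. Both mutated genes were thus lower than in the wild type in each mutant named for them, with counts remaining at both loci. The log2 fold change of NLP2 in double mutant roots was the smallest of these, at -0.41. In nlp7-1 roots NLP2 rose by 0.51 on the log2 scale (edgeR adjusted p = 0.00654). In shoots NLP2 fell by 0.53 in nlp2-2 and by 1.74 in nlp2-3, and these falls differed (edgeR adjusted p = 1.26e-08). Leaf mesophyll markers summed to 29.3 to 93.7 CPM in root libraries and to over 53500 CPM in every shoot library, and root hair markers to at most 0.186 CPM in shoots.

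Of the signalling genes, PHO2 carries the target of miR399 and IPS1 and At4 carry its imitation, and the sequences show how they differ. The mature miR399b is printed with its seed, bases 2 to 8, in capitals. In the other lines capitals mark the bases that pair with miR399b for IPS1 and At4, and with miR399a, another family member, for PHO2. The stretches come from the RefSeq annotation of TAIR10.1, at chr3:3051224-3051247 on the plus strand for IPS1, chr5:895149-895172 on the plus strand for At4, and chr2:14281884-14281904 on the minus strand for PHO2.
miR399b: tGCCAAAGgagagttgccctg
IPS1: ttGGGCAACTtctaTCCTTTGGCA
At4: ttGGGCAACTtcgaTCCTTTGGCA
PHO2: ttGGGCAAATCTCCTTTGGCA
In IPS1 and At4, 18 of 21 bases paired with miR399b, and 3 extra bases opened a bulge in the middle of the site. In PHO2, 19 of 21 bases paired with no bulge at each of 5 sites, which all lie before the coding part. The PHO2 sites were paired with miR399a or miR399f, so the counts of 18 and 19 are against different family members. Counts at 8 loci of phosphate-related microRNAs, the miR399 loci among them, were 0 in every library, so the microRNA itself was not measured.

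Promoter stretches are shown for the imitation pair, for a transporter pair that shares a stretch and for others named in the results. Capitals mark a P1BS match, searched as GNATATNC, which reads the same on both strands. A match that reads GAATATTC is also the binding motif of the NIGT1 repressors, so the motifs overlap there. Each stretch reads 5′ to 3′ towards its gene and ends before the annotated start. By TAIR10.1 they lie at chr3:3050381-3050440 (plus) for IPS1, chr5:894530-894581 (plus) for At4, chr5:6801521-6801580 (plus) for SPX1, chr5:17415630-17415689 (plus) for PHT1;2, chr5:17409105-17409164 (plus) for PHT1;3, chr1:2752071-2752123 (plus) for PPCK1, and chr3:350040-350099 (minus) for SRG3.
IPS1: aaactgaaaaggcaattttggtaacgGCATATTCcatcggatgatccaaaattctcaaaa
At4: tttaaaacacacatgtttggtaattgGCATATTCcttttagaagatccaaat
SPX1: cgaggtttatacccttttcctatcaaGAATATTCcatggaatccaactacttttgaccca
PHT1;2: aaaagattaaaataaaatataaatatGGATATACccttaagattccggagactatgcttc
PHT1;3: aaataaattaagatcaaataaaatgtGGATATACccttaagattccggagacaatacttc
PPCK1: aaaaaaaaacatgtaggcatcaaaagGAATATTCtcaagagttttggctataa
SRG3: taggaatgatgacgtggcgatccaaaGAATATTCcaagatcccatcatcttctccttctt
The match began 26 bases before the start of At4, 27 before PPCK1, 42 before PHT1;2 and 63 before SRG3, and 393, 582 and 735 bases before PHT1;3, IPS1 and SPX1. The PHT1;2 and PHT1;3 stretches share an unbroken run of 27 bases that covers the match. Within 1000 bases upstream, 26 of the 39 members (66.7%) held a P1BS match, against 20.3% of the 27443 promoters read. GAATATTC was in 10 members (25.6%), against 2.82% of promoters.

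Levels between genes are compared as FPKM, fragments scaled to gene length and library size, in Col-0. In roots the most abundant member was the transporter PHT1;1, at 216 to 301 FPKM. At4 followed with 149 to 153, PHO2 with 128 to 157 and PPCK1, a kinase of phosphoenolpyruvate carboxylase, with 87 to 109. At4 and PHO2 overlapped in this order, whereas every PHT1;1 value lay above every At4 value. At the low end stood IPS1 at 5.71 to 9.25, PLDZ2 at 1.73 to 1.91, SPX3 at 1.3 to 1.74, and the phosphatase gene PEPC1 at 0.108 to 0.219. The genes PHT1;6, PHT1;7 and NPC5 were at or near 0, with at most 2 counts in any library of either tissue, and could not be tested.

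In Col-0 shoots the sulfolipid gene SQD1 led with 61.2 to 69.4 FPKM. PHO2 came next with 51.3 to 52.7, the vacuolar phosphatase gene PAP26 with 46.1 to 48.8 and the sulfolipid gene SQD2 with 37.1 to 41.7. The imitation RNA At4, second in roots, had 1.75 to 3.06 FPKM in shoots. PHT1;1, PHT1;2, PHT1;3, PHT1;8 and PHT1;9 had too few counts there to be tested. Against a floor of 3 counts per library, PHT1;2 was at least 209-fold higher in Col-0 roots than in Col-0 shoots and PHT1;3 at least 137-fold. In the fit of both tissues 21 members were lower and 9 higher in Col-0 shoots than in roots, beside 42% of genes lower and 36.4% higher. Scaling across the tissues moved log2 fold changes by 0.74 towards the shoot, relative to CPM scaled within a tissue, so small differences of level between tissues depend on that scaling.

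In the roots of every mutant, the phosphate genes that passed the test were nearly all lower than in the wild type. In nlp2-2 roots, 11 of the 36 members tested fell and 0 rose, beside 3.91% of all genes that fell and 3.2% that rose. In nlp2-3 roots 13 fell and 1 rose (all genes 3.48 and 3.36%), in nlp7-1 roots 13 fell and 0 rose (3.45 and 4.5%), and in double mutant roots 18 fell and 1 rose (12.2 and 12.9%). The median log2 fold change over the members tested was -0.23, -0.25, -0.25 and -0.29 in that order, and that over all genes tested lay between -0.01 and 0.00. All of these calls are from edgeR's quasi-likelihood test at a Benjamini-Hochberg (BH) adjusted p under 0.05. In bulk tissue, fewer cells that express a gene and less RNA per cell cannot be told apart. The root hair markers moved as well: 7 of 7 had counts, their sum was 112 to 170 CPM in the wild types and 160 to 245 in the mutants, and 1, 0, 0 and 2 of them rose in that order of mutants. Root hairs take up phosphate, and the markers' part in the results was not tested.

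**Figure D1:**
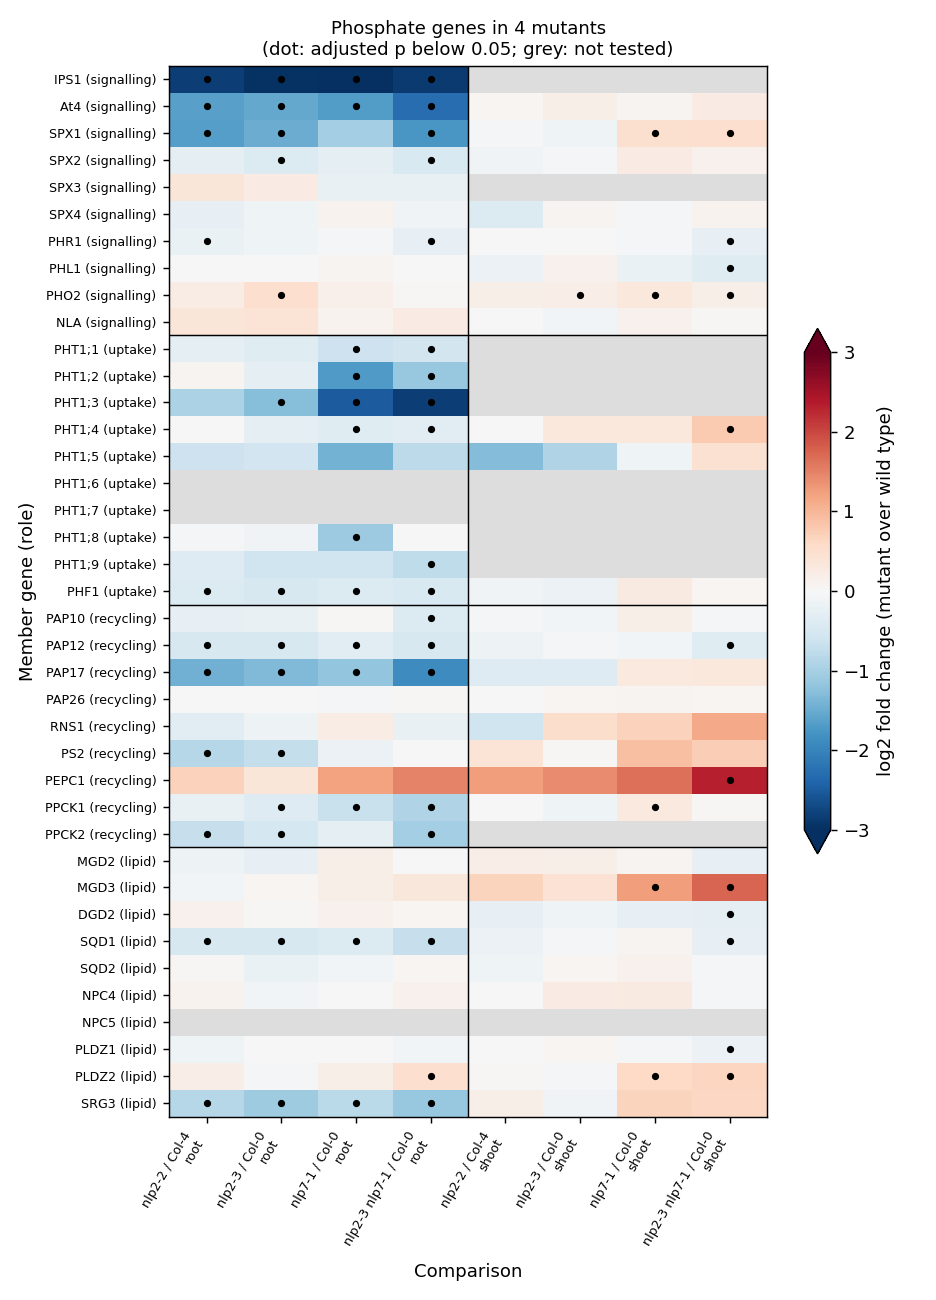
Log2 fold change of each member tested in the 4 mutants against their wild types, in roots and in shoots, grouped by role; dots mark an edgeR adjusted p under 0.05 and grey cells were not tested. The root columns hold many more lowered cells than the shoot columns, and IPS1, At4, PHF1, PAP12, PAP17, SQD1 and SRG3 are lowered in all 4 root columns.

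The calls in roots were also counted by role. Among all genes tested 3.91, 3.48, 3.45 and 12.2% fell in the roots of the mutants in that order. Of the 10 signalling genes, 4, 4, 2 and 5 fell. The members that rose were PHO2, a signalling gene, in nlp2-3 and PLDZ2, a lipid gene, in the double mutant. Of the 8 uptake genes tested, 1, 2, 6 and 6 fell, and their median log2 fold change was -0.33, -0.42, -0.85 and -0.66. The 9 recycling genes gave 4, 5, 3 and 5 that fell. Of the 9 lipid genes tested 2 fell in each mutant, and their median, -0.09 to 0.05, lay near that of all genes. Across the 4 mutants 7 members fell in each: IPS1, At4, the transport factor PHF1, the phosphatases PAP12 and PAP17, SQD1 and the phosphodiesterase gene SRG3. Another 14 members tested passed in no mutant, among them SPX4, PHL1, NLA, PAP26 and SQD2.

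IPS1 (AT3G09922) was nearly absent from all mutant roots. Its root CPM was 3.18, 3.68 and 5.09 in Col-0 and 2.77, 3.15 and 3.62 in Col-4. The mutants gave 0.197, 0.599 and 0.54 in nlp2-2, 0.637, 0.4 and 0.489 in nlp2-3, 0.0482, 0.51 and 0.197 in nlp7-1, and 0.889, 0.517 and 0.182 in the double mutant. Every mutant library lay below every wild type library. The log2 fold changes were -2.82 ± 0.46 (SE) in nlp2-2, -2.96 ± 0.44 in nlp2-3, -3.94 ± 0.49 in nlp7-1 and -2.88 ± 0.43 in the double mutant (edgeR adjusted p 0.000544, 0.000236, 2.89e-05 and 4.95e-05). The mutant libraries held 1 to 21 counts of IPS1 each, against 58 to 102 in the wild types, so the size of the fall rests on few counts.

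At4 (AT5G03545), the other imitation RNA, was also lower in all mutant roots. Its root CPM was 145, 140 and 146 in Col-0 and 144, 136 and 116 in Col-4. It was 41, 45.1 and 42.7 in nlp2-2, 48.3, 44.2 and 56.6 in nlp2-3, 40.3, 51.7 and 41.9 in nlp7-1, and 32.7, 33.9 and 21.1 in the double mutant. No mutant library reached the lowest wild type library, and the double mutant libraries lay below those of each single mutant. The log2 fold changes were -1.62 ± 0.14, -1.52 ± 0.14, -1.68 ± 0.14 and -2.29 ± 0.15 (SE; edgeR adjusted p 3.18e-06, 6.05e-06, 1.2e-06 and 8.95e-09).

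SPX1 (AT5G20150), the sensor protein gene that PHR1 itself induces, had 47.6, 58.7 and 63.8 CPM in Col-0 roots and 43.2, 52 and 74.5 in Col-4 roots. It had 13.5, 16.6 and 24.2 in nlp2-2, 14.8, 18 and 26.9 in nlp2-3, 21.9, 28 and 34.2 in nlp7-1, and 11.1, 22.5 and 17 in the double mutant. All mutant libraries were below all wild type libraries, with nlp7-1 nearest to them. SPX1 fell by 1.65 ± 0.31, 1.50 ± 0.31 and 1.75 ± 0.31 on the log2 scale (SE) in the nlp2 alleles and the double mutant (edgeR adjusted p 0.00486, 0.00871 and 0.000902). In nlp7-1 the value of -1.02 ± 0.30 did not pass with edgeR (adjusted p = 0.0562). It passed with DESeq2 (adjusted p = 0.0207), with limma (0.0437) and with edgeR on the groups compared alone (0.00684), and over all alternatives its adjusted p was 0.000196 to 0.177. SPX2 (AT2G26660), a close relative of SPX1, fell by 0.40 in nlp2-3 and by 0.46 in the double mutant (edgeR adjusted p 0.0117 and 0.00128). Without Col-0 replicate 3 or nlp2-3 replicate 2 the SPX2 call in nlp2-3 was lost (edgeR adjusted p 0.0855 and 0.0563). Fitting the groups compared alone also ended it (edgeR adjusted p = 0.0953).

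**Figure D2:**
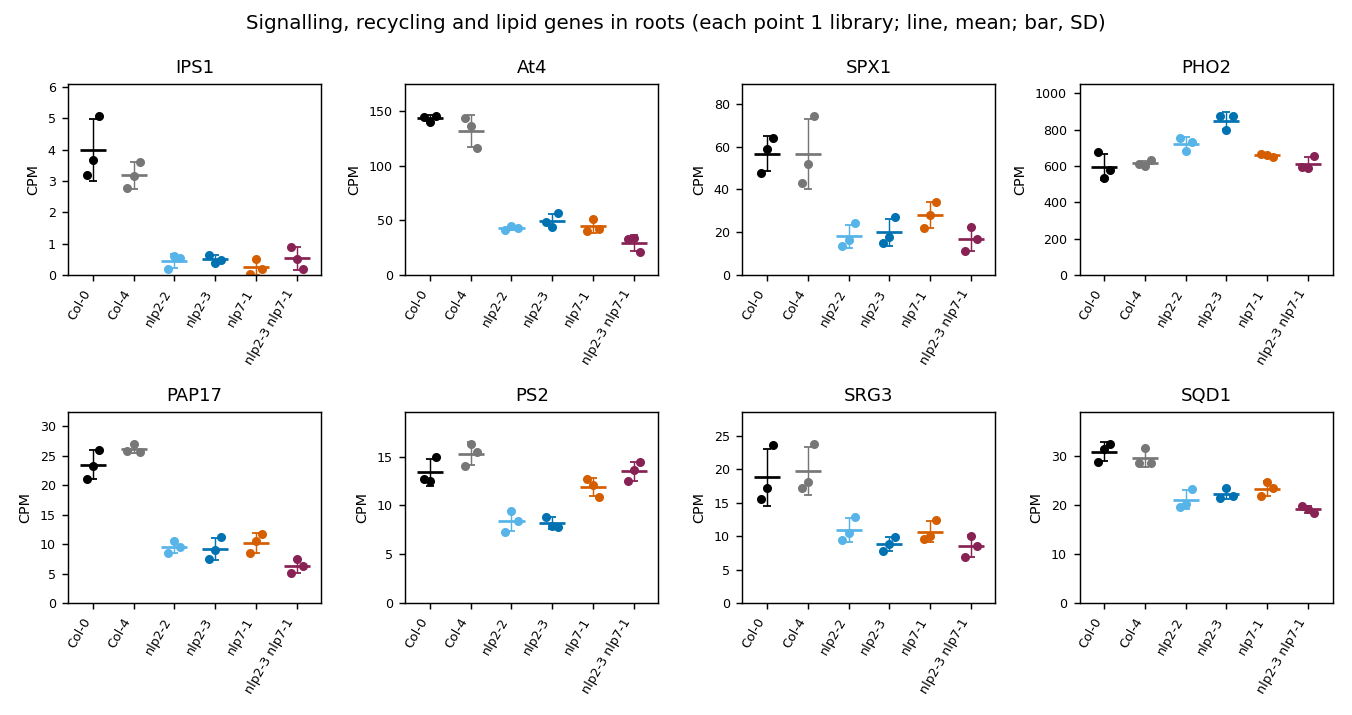
Root CPM (y axes, from 0) of 8 members by genotype, with each library as a point, the group mean as a line and the SD as a bar. IPS1, At4, SPX1 and PAP17 are lower in each mutant library than in each wild type library.

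The regulators upstream and downstream of these RNAs moved little. PHR1 (AT4G28610), the central transcription factor, had 63.6, 57.3 and 64 CPM in Col-0 roots and 52.5, 51.1 and 52.5 in double mutant roots, groups that did not overlap. It fell by 0.24 ± 0.06 on the log2 scale there (SE; edgeR adjusted p = 0.00315). In nlp2-2 PHR1 fell by 0.19 (edgeR adjusted p = 0.0415), a call lost without any Col-4 replicate or without nlp2-2 replicate 2 or 3 (0.0917 to 0.182). That call also ended with no filter on low counts (edgeR adjusted p = 0.0775) and with the groups compared alone (0.0825). PHR1 shares its locus with a gene on the other strand, as do NLA, PAP10, PAP17, PPCK1, PLDZ2 and SRG3, and without a stated strand setting their counts are uncertain.

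PHO2 (AT2G33770), which encodes the ubiquitin-conjugating enzyme that miR399 targets, moved the other way in nlp2-3. Root CPM was 675, 536 and 578 in Col-0 and 877, 796 and 878 in nlp2-3, and 666, 660 and 652 in nlp7-1 and 597, 587 and 654 in the double mutant. All nlp2-3 libraries lay above all Col-0 libraries, while the double mutant overlapped Col-0. PHO2 rose by 0.51 ± 0.08 on the log2 scale in nlp2-3 (SE; edgeR adjusted p = 0.000223) and had 0.14 in nlp7-1 and 0.04 in the double mutant (edgeR adjusted p 0.278 and 0.762). In nlp2-2 it had 753, 681 and 733 CPM against 610, 601 and 632 in Col-4, a log2 fold change of 0.23 (edgeR adjusted p = 0.0697). With the replicate number as a block PHO2 passed in nlp2-2, at 0.23 and an edgeR adjusted p of 0.0295, as it did with DESeq2 (adjusted p = 0.0258) and with limma (0.0414). NLA (AT1G02860), a ubiquitin ligase that also removes transporters, did not pass in any mutant, with log2 fold changes of 0.12 to 0.41.

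Among uptake genes the transporters PHT1;2 and PHT1;3 fell further where NLP7 was mutated than in the nlp2 single mutants. No test set nlp7-1 against an nlp2 single mutant. PHT1;2 (AT5G43370) had 52.1, 54.6 and 64.5 CPM in Col-0 roots, 47, 41.3 and 54.1 in nlp2-3, 12.3, 21.1 and 19.5 in nlp7-1, and 23.2, 30.4 and 24.2 in the double mutant. In Col-4 it had 51.8, 53.3 and 42.4 and in nlp2-2 50.7, 57.1 and 48.6. The nlp7-1 and double mutant libraries were all below the other 12, which overlapped one another. PHT1;2 fell by 1.69 ± 0.17 on the log2 scale in nlp7-1 and by 1.14 ± 0.16 in the double mutant (SE; edgeR adjusted p 8.41e-06 and 7.49e-05). The values of 0.08 in nlp2-2 and -0.26 in nlp2-3 did not pass (edgeR adjusted p 0.849 and 0.405).

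PHT1;3 (AT5G43360), a root phosphate transporter, showed the largest falls of the family. It had 34.5, 30.8 and 46.6 CPM in Col-0 roots and 39.8, 38.2 and 23.6 in Col-4. It had 16.4, 20.3 and 15.6 in nlp2-2, 18.8, 7.75 and 19.3 in nlp2-3, 4.77, 6.68 and 8.43 in nlp7-1, and 3, 7.2 and 5.56 in the double mutant. All mutant libraries lay below all wild type libraries, and the double mutant overlapped nlp7-1. PHT1;3 fell by 2.49 ± 0.37 on the log2 scale in nlp7-1 and by 2.82 ± 0.37 in the double mutant (SE; edgeR adjusted p 0.00074 and 7.09e-05). In nlp2-3 it fell by 1.28 ± 0.34 (edgeR adjusted p = 0.0358), a call lost with the replicate block (adjusted p = 0.054) and without any 1 of its 6 libraries (0.0522 to 0.127). No filter on low counts (edgeR adjusted p = 0.0593) or the groups compared alone (0.058) ended that call as well. In nlp2-2 the value of -0.96 did not pass (edgeR adjusted p = 0.115).

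PHT1;1 (AT5G43350), the main root transporter, had 595, 436 and 615 CPM in Col-0 roots, 322, 338 and 413 in nlp7-1, and 393, 388 and 346 in the double mutant. Both mutants lay below Col-0 without overlap. PHT1;1 fell by 0.62 ± 0.16 and by 0.55 ± 0.16 on the log2 scale (SE; edgeR adjusted p 0.0219 and 0.0171). The nlp7-1 call was lost without Col-0 replicate 1 or 3 or nlp7-1 replicate 1 or 2 (0.0694 to 0.0972), and the double mutant call without Col-0 replicate 1 or 3 or its own replicate 3 (0.0651 to 0.0728). In nlp2-2 and nlp2-3 PHT1;1 did not pass. Its nlp2-2 libraries all lay below Col-4, and with the groups compared alone it passed there, at -0.29 (edgeR adjusted p = 0.0172). PHT1;1 and PHT1;2 share 97.7% of their coding bases, with an identical run of 404 bases, and PHT1;3 shares 90.0 and 89.4% with them, so reads may have been split or dropped between these copies. By FPKM, PHT1;1 made up 78.5 ± 2.57% of the summed PHT1 transcripts in Col-0 roots, 86.9 ± 1.39% in nlp7-1 and 85.5 ± 1.53% in the double mutant (SD, n = 3). The summed FPKM was 283 to 386 in Col-0, 182 to 235 in nlp7-1 and 206 to 232 in the double mutant.

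PHT1;8 (AT1G20860) fell in nlp7-1 and not in the double mutant. This transporter had 4.14, 3.24 and 3.99 CPM in Col-0 roots, 1.44, 1.72 and 2.22 in nlp7-1, and 3.13, 4.58 and 3.79 in the double mutant. Col-0 and the double mutant overlapped, and nlp7-1 lay below both. PHT1;8 fell by 1.08 ± 0.23 on the log2 scale in nlp7-1 (SE; edgeR adjusted p = 0.00562), and its value in the double mutant was 0.01 (edgeR adjusted p = 0.973). PHT1;9 (AT1G76430), its close relative, had 6.73, 5.84 and 6.84 CPM in Col-0 and 3.98, 3.98 and 3.42 in the double mutant, and fell by 0.77 ± 0.20 there (SE; edgeR adjusted p = 0.00831). The PHT1;9 libraries of nlp2-3 and nlp7-1 also lay below all Col-0 libraries, without a call in the main fit. With the groups compared alone PHT1;9 passed in nlp7-1, at -0.59 (edgeR adjusted p = 0.0461). PHT1;4 (AT2G38940), a transporter active at both low and high phosphate, fell by 0.36 in nlp7-1 and by 0.34 in the double mutant (edgeR adjusted p 0.0384 and 0.0206). Those PHT1;4 calls were lost without Col-0 replicate 3 (0.187 and 0.128) and without several other single libraries. Both were also lost with the groups compared alone (edgeR adjusted p 0.0794 and 0.0589), and the nlp7-1 call with limma (adjusted p = 0.058). In nlp2-2 and nlp2-3 PHT1;4 did not pass, but in nlp2-3 it did without Col-0 replicate 1, at -0.37 (edgeR adjusted p = 0.0493).

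PHF1 (AT3G52190), which helps PHT1 proteins leave the endoplasmic reticulum, fell by a similar amount in all mutants. Its root CPM was 67 to 74.3 over the 6 wild type libraries and 45.3 to 58.3 over the 12 mutant libraries, with no overlap. The log2 fold changes were -0.41, -0.47, -0.40 and -0.46, each ± 0.09 (SE; edgeR adjusted p 0.00674, 0.00237, 0.00739 and 0.000849). The nlp7-1 call was lost without nlp7-1 replicate 1 (edgeR adjusted p = 0.0586).

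**Figure D3:**
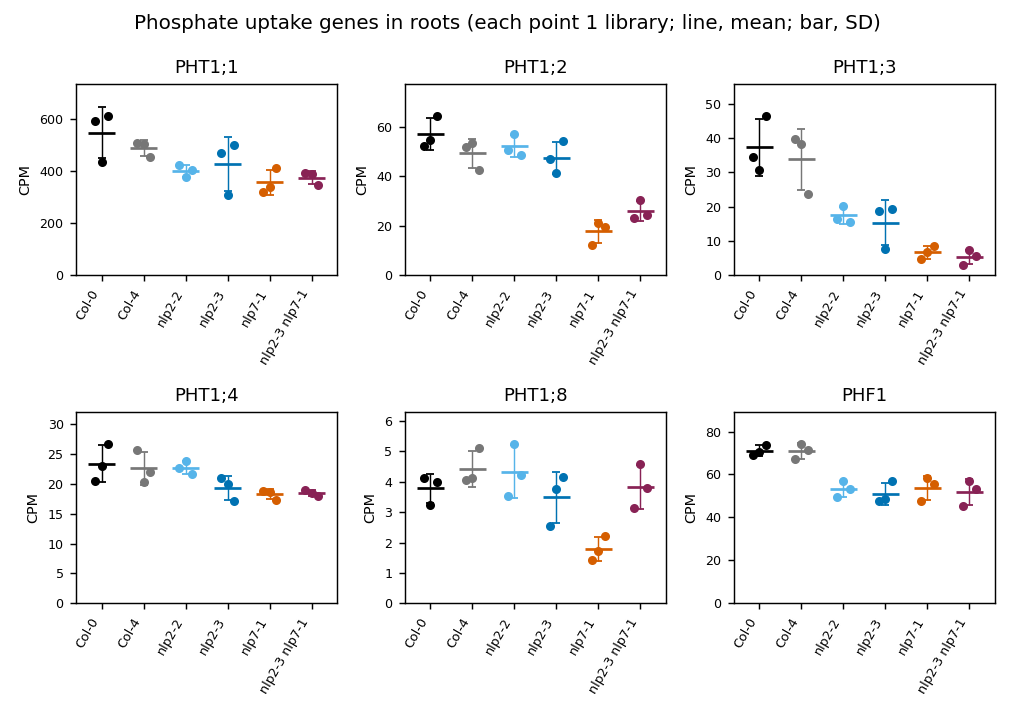
Root CPM (y axes, from 0) of 6 uptake genes by genotype, with each library as a point, the group mean as a line and the SD as a bar. PHT1;2 and PHT1;3 are lowest in nlp7-1 and the double mutant, and PHT1;8 is lowest in nlp7-1.

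Among phosphatases, PAP17 (AT3G17790), a purple acid phosphatase induced by phosphate starvation, fell most. Its root CPM was 21.1, 23.2 and 26 in Col-0 and 25.8, 27 and 25.6 in Col-4. It was 8.5, 10.5 and 9.61 in nlp2-2, 7.5, 9.1 and 11.2 in nlp2-3, 8.48, 10.5 and 11.8 in nlp7-1, and 5.2, 7.52 and 6.25 in the double mutant. Wild types and mutants did not overlap. PAP17 fell by 1.45, 1.33, 1.19 and 1.89 on the log2 scale, each ± 0.15 (SE; edgeR adjusted p 3.98e-06, 1.16e-05, 2.72e-05 and 2.44e-08). PAP12 (AT2G27190), a secreted phosphatase, fell by 0.48, 0.47, 0.31 and 0.49 (edgeR adjusted p 0.000195, 0.000218, 0.00704 and 2.77e-05), a call lost in nlp7-1 without nlp7-1 replicate 2 (0.0528). PAP10 (AT2G16430), bound to the root surface, fell by 0.42 ± 0.10 in the double mutant only among the 4 comparisons (SE; edgeR adjusted p = 0.00314), and PAP26 passed in none.

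PS2 (AT1G73010), a phosphatase gene, fell in the roots of both nlp2 alleles. It had 12.7, 12.5 and 14.9 CPM in Col-0 and 14, 16.3 and 15.5 in Col-4, 7.32, 9.4 and 8.42 in nlp2-2, and 8.87, 7.85 and 7.79 in nlp2-3. It had 12.7, 12.1 and 10.9 in nlp7-1 and 12.5, 13.6 and 14.4 in the double mutant. The nlp2 single mutants lay below all wild type libraries, and the double mutant overlapped Col-0. PS2 fell by 0.87 ± 0.11 and 0.71 ± 0.11 on the log2 scale in nlp2-2 and nlp2-3 (SE; edgeR adjusted p 6.82e-05 and 0.000437), with values of -0.17 in nlp7-1 and 0.01 in the double mutant (0.396 and 0.957).

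PPCK1 (AT1G08650) and PPCK2 (AT3G04530) encode kinases of phosphoenolpyruvate carboxylase, an enzyme of the bypass reactions that spare phosphate. PPCK1 had 118, 144 and 125 CPM in Col-0 roots, 97.4, 102 and 96.5 in nlp2-3, 76.4, 82.3 and 84.3 in nlp7-1, and 66.4, 69.7 and 70.7 in the double mutant. The groups did not overlap, and the double mutant was lowest. PPCK1 fell by 0.39 ± 0.08, 0.67 ± 0.08 and 0.91 ± 0.08 on the log2 scale (SE; edgeR adjusted p 0.00244, 8.44e-06 and 3.79e-08), and the nlp2-3 call was lost when the groups compared were fitted alone (0.0507). In nlp2-2 its value of -0.21 did not pass (edgeR adjusted p = 0.0962) but did with the replicate block, at -0.22 and an adjusted p of 0.0434. PPCK2 fell by 0.69 ± 0.11 in nlp2-2, 0.54 ± 0.10 in nlp2-3 and 1.01 ± 0.11 in the double mutant (SE; edgeR adjusted p 0.000336, 0.00268 and 6.72e-07), and had -0.27 in nlp7-1 (0.129).

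Only SQD1 and SRG3 of the lipid genes fell in roots, and they did so in each mutant. SQD1 (AT4G33030), which makes the head group of sulfolipids, had 28.7, 31.5 and 32.5 CPM in Col-0, 28.6, 31.7 and 28.5 in Col-4, and 18.4 to 24.8 over the 12 mutant libraries. Its log2 fold changes were -0.49, -0.47, -0.40 and -0.69, each with SE near 0.08 (edgeR adjusted p 0.000784, 0.00103, 0.00347 and 3.31e-06). SRG3 (AT3G02040), a glycerophosphodiester phosphodiesterase that releases glycerol phosphate from deacylated lipids, had 15.6, 17.2 and 23.6 CPM in Col-0 and 6.9, 10.1 and 8.57 in the double mutant. For both genes the mutant libraries lay below the wild type libraries without overlap. SRG3 fell by 0.85, 1.07, 0.81 and 1.13 on the log2 scale, each ± 0.18 (SE; edgeR adjusted p 0.00532, 0.000901, 0.00704 and 0.00012). PLDZ2 (AT3G05630), a phospholipase D that breaks down phospholipids, rose by 0.52 ± 0.14 in double mutant roots (SE; edgeR adjusted p = 0.00905), a call lost without double mutant replicate 1 (0.0602). The galactolipid synthases MGD2, MGD3 and DGD2, the sulfolipid gene SQD2, and NPC4 and PLDZ1 passed in no mutant root.

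The alleles of NLP2 were compared through their own wild types, which share no library. Of the 11 members that fell in nlp2-2 roots and the 13 that fell in nlp2-3 roots, 10 were shared, 90.9% and 76.9% of each list. No member passed the edgeR test of the difference between the alleles, beside 0.0635% of all genes in roots and 0.345% in shoots. DESeq2 and limma called 0 as well, and 1 member, PHO2 in roots, had an unadjusted p under 0.05. The difference, nlp2-2 minus nlp2-3, was -0.10 for At4 (95% interval -0.52 to 0.32), -0.12 for PAP17 (-0.555 to 0.315) and -0.28 for PHO2 (-0.50 to -0.06). For SPX1 it was -0.15 (-1.08 to 0.77), an interval too wide to set the alleles apart or alike. Col-4 and Col-0 differed in no member in either tissue by edgeR, DESeq2 or limma, with 0 members at an unadjusted p under 0.05, beside 0.0391% of all genes in roots and 0.794% in shoots.

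In roots the double mutant was set against each single mutant. Against nlp7-1, 5 members fell and 1 rose, beside 4.08 and 2.44% of all genes. At4 fell further by 0.61, PAP17 by 0.70, PPCK2 by 0.74, PAP10 by 0.45 and SQD1 by 0.29 on the log2 scale (edgeR adjusted p 0.0188, 0.00969, 0.000145, 0.00647 and 0.0416), and PHT1;8 rose by 1.097 (0.00546). Against nlp2-3, 7 members fell and 2 rose, beside 3.66 and 2.82%. At4 fell by 0.77, PHO2 by 0.47, PHT1;2 by 0.87, PHT1;3 by 1.54, PAP17 by 0.56, PPCK1 by 0.52 and PPCK2 by 0.47 (edgeR adjusted p 0.00339, 0.000416, 0.00313, 0.0251, 0.0378, 0.000182 and 0.00921), and PS2 and PLDZ2 rose by 0.73 and 0.59 (0.000313 and 0.0118). Fitted on the groups compared alone, 4 members passed against nlp2-3 in place of 9.

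An interaction term asked whether the double mutant differed from the sum of the nlp2-3 and nlp7-1 effects on the log2 scale. In roots it passed for 3 members, beside 0.239% of all genes: IPS1 at 4.01 ± 0.74, PS2 at 0.90 ± 0.16 and PHO2 at -0.62 ± 0.11 (SE; edgeR adjusted p 0.0214, 0.014 and 0.0118). Each thus stood nearer to Col-0 in the double mutant than the summed effects would place it. For IPS1 the mutant roots held few counts, down to 1 in a library, so its interaction value rests on counts near the floor. The part of that floor in the value was not tested. The count was 0 without nlp2-3 replicate 3 and 1 without nlp7-1 replicate 3. At4, PHT1;2 and PHT1;8 had interaction values of 0.92, 0.82 and 1.21 that did not pass (edgeR adjusted p 0.094, 0.27 and 0.163).

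Shoots showed another pattern, with more than 1 call only in nlp7-1, where all rose, and in the double mutant, where calls lay on both sides. No member of the 28 tested passed in nlp2-2 shoots by edgeR, DESeq2 or limma, with 7 at an unadjusted p under 0.05, beside 3.06% of all genes (2.33% lower and 0.737% higher). In nlp2-3 shoots 1 rose and 0 fell (all genes 1.33 and 4.47%), in nlp7-1 shoots 5 rose and 0 fell (4.84 and 4.93%), and in double mutant shoots 6 rose and 6 fell (15.5 and 15.6%). With 6 of 28 in each direction, the double mutant's shares lay close to those of all genes. Leaf mesophyll markers moved with them in double mutant shoots: 3 of 5 fell, LHCB1-3 by 0.29, CA1 by 0.25 and RCA by 0.11 on the log2 scale (edgeR adjusted p 2.54e-05, 0.000247 and 0.0434), and their sum was 53500 to 55200 CPM against 58500 to 62100 in Col-0. In nlp7-1 shoots 0 of the 5 passed by edgeR, and the sum was 58600 to 60500 CPM. Their part in the results was not tested. The medians over the members tested were -0.02, 0.02, 0.22 and 0.09. The nlp7-1 count was 2 without Col-0 replicate 1 or nlp7-1 replicate 2 and 3 without nlp7-1 replicate 3, and the nlp2-3 count was 0 without Col-0 replicate 1 or 3 or nlp2-3 replicate 3.

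**Figure D4:**
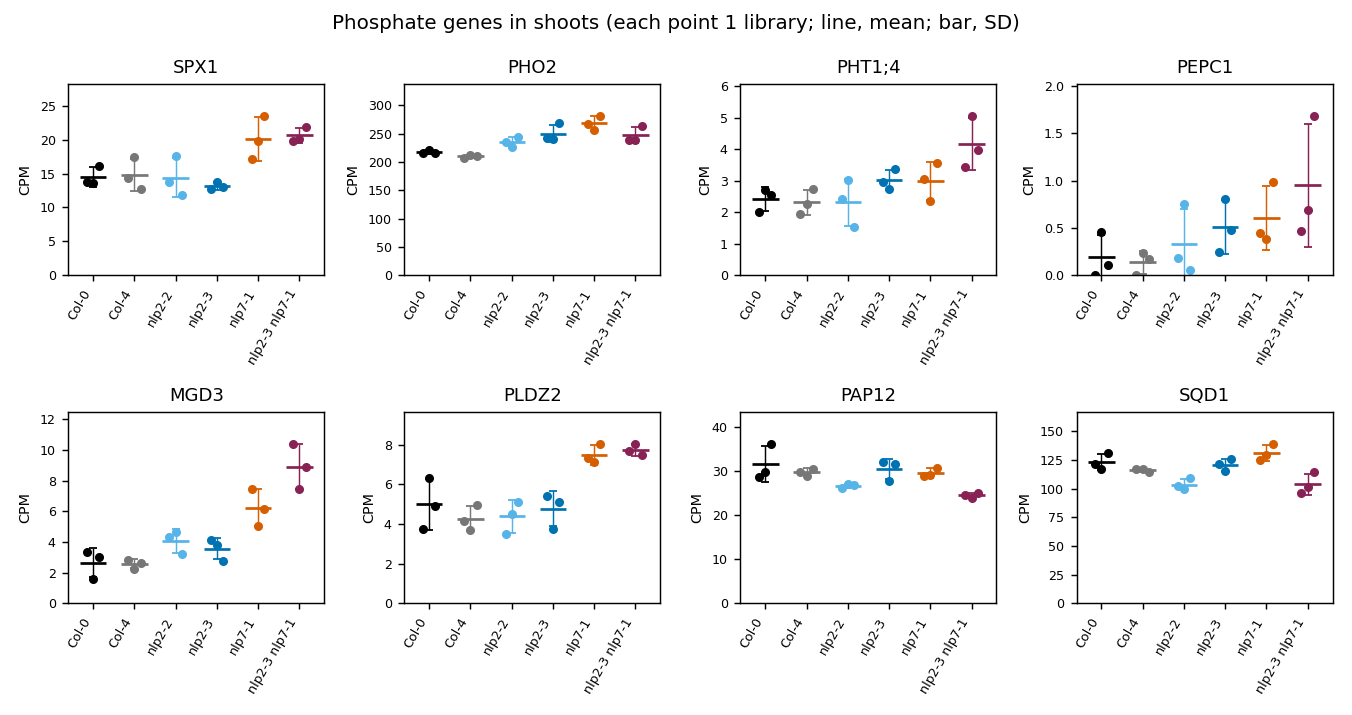
Shoot CPM (y axes, from 0) of 8 members by genotype, with each library as a point, the group mean as a line and the SD as a bar. MGD3 is higher in each nlp7-1 and double mutant library than in each other library.

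MGD3 (AT2G11810), a galactolipid synthase of phosphate-starved plants, had the largest rise of the lipid genes in nlp7-1 and double mutant shoots. Its shoot CPM was 3.35, 1.56 and 2.99 in Col-0, 2.83, 2.26 and 2.62 in Col-4, 4.33, 4.68 and 3.19 in nlp2-2, and 4.11, 3.77 and 2.78 in nlp2-3. It was 7.46, 5.07 and 6.15 in nlp7-1 and 10.4, 7.44 and 8.9 in the double mutant, above all other shoot libraries. MGD3 rose by 1.24 ± 0.22 and 1.76 ± 0.22 on the log2 scale (SE; edgeR adjusted p 0.000646 and 1.34e-06). PLDZ2 had 3.77, 6.32 and 4.89 CPM in Col-0, 7.3, 7.11 and 8.04 in nlp7-1 and 7.67, 8.04 and 7.46 in the double mutant, without overlap. It rose by 0.59 ± 0.17 and 0.64 ± 0.17 (SE; edgeR adjusted p 0.0307 and 0.00647). Without Col-0 replicate 1 both PLDZ2 calls were lost (0.195 and 0.0666), and without any other library but Col-0 replicate 2 the one in nlp7-1. Limma ended the nlp7-1 call too (adjusted p = 0.0646).

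Other lipid genes fell in double mutant shoots. SQD1 had 121, 117 and 131 CPM in Col-0, 125, 129 and 139 in nlp7-1, and 96.1, 101 and 114 in the double mutant, which lay below both. SQD1 fell by 0.24 ± 0.06 on the log2 scale (SE; edgeR adjusted p = 0.00375). DGD2 and PLDZ1 fell by 0.28 and 0.18 (edgeR adjusted p 0.0375 and 0.0372), and those calls were lost without Col-0 replicate 3 (0.128 and 0.214) or without either of several other libraries. Limma ended both (adjusted p 0.0767 and 0.139), and the groups compared alone that of PLDZ1 (edgeR adjusted p = 0.0568).

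Of the signalling genes, SPX1 had 13.8, 13.6 and 16.2 CPM in Col-0 shoots, 17.1, 19.8 and 23.6 in nlp7-1 and 19.9, 20.2 and 21.9 in the double mutant. Both mutants lay above Col-0, the opposite side from roots. SPX1 rose by 0.47 ± 0.13 and 0.51 ± 0.13 on the log2 scale (SE; edgeR adjusted p 0.025 and 0.0047). The nlp7-1 call was lost without Col-0 replicate 1 or 2 or nlp7-1 replicate 2 or 3 (0.0606 to 0.132). It was lost with limma as well (adjusted p = 0.0526). PHO2 had 215, 221 and 216 CPM in Col-0, 242, 240 and 268 in nlp2-3, 267, 256 and 282 in nlp7-1 and 239, 239 and 264 in the double mutant, all above Col-0. PHO2 rose by 0.20, 0.30 and 0.19 (edgeR adjusted p 0.0193, 0.000481 and 0.00916), and lost its call in nlp2-3 without Col-0 replicate 1 or 3 or nlp2-3 replicate 3 (0.0624 to 0.169) and in the double mutant without its replicate 3 (0.0987). Fitting the groups compared alone also ended the nlp2-3 call (edgeR adjusted p = 0.0631).

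PHR1 had 58.5, 63.1 and 59.2 CPM in Col-0 shoots and 53.4, 46.4 and 52.7 in the double mutant, where it fell by 0.25 ± 0.06 on the log2 scale (SE; edgeR adjusted p = 0.00182). These groups did not overlap. PHL1 fell there by 0.35 (edgeR adjusted p = 0.0426), a call lost when replicate 2 or 3 of either group was left out (0.127 to 0.195). Limma (adjusted p = 0.0564) and the groups compared alone (edgeR adjusted p = 0.0622) ended the PHL1 call too. PAP12 had 28.6, 29.8 and 36.1 CPM in Col-0 and 24.4, 23.8 and 25 in the double mutant, and fell by 0.36 ± 0.08 (SE; edgeR adjusted p = 0.000874).

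Only PHT1;4, PHT1;5 and PHF1 of the uptake genes were tested in shoots. PHT1;1, with at most 12 counts in a shoot library, was not, though its double mutant values lay above those of Col-0. Of those tested, only PHT1;4 rose against the wild type, with 1.99, 2.71 and 2.55 CPM in Col-0 and 3.45, 5.07 and 3.96 in the double mutant. It rose by 0.79 ± 0.23 on the log2 scale (SE; edgeR adjusted p = 0.00941), a call lost without Col-0 replicate 1 (0.0613) or double mutant replicate 2 (0.0728). PEPC1 (AT1G17710), a phosphatase of phosphocholine and phosphoethanolamine, rose by 2.34 ± 0.87 in the double mutant (SE; edgeR adjusted p = 0.0492) from 0, 0.451 and 0.109 CPM to 0.469, 0.688 and 1.69. The PEPC1 call did not survive the loss of replicate 1 or 3 of Col-0, or of replicate 2 or 3 of the double mutant (0.0614 to 0.231). Nor did it survive with no filter on low counts (edgeR adjusted p = 0.0723) or with the groups compared alone (0.054). PPCK1 rose by 0.29 ± 0.08 in nlp7-1 shoots, from 43.4, 55.5 and 52.4 CPM in Col-0 to 60.3, 62.5 and 61.9 (SE; edgeR adjusted p = 0.0164). Its call was lost without Col-0 replicate 1 (0.14) or nlp7-1 replicate 2 (0.0578).

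Against nlp7-1, 5 members fell and 0 rose in double mutant shoots, beside 4.23 and 3.77% of all genes: PHR1, PAP10, PAP12, PPCK1 and SQD1. Leaving out any 1 of the 6 libraries brought that count to between 1 and 3. Against nlp2-3, 6 fell and 6 rose, beside 12.9 and 13.6%. SPX1 rose by 0.65, MGD3 by 1.31, PAP17 by 0.70, SRG3 by 0.73, PLDZ2 by 0.69 and the transporter PHT1;5 by 1.36 on the log2 scale (edgeR adjusted p 5.43e-05 to 0.0441). PHL1 fell by 0.49, MGD2 by 0.42, PAP12 by 0.32, PHR1 by 0.24, PLDZ1 by 0.23 and SQD1 by 0.22 (edgeR adjusted p 0.00312 to 0.012). The interaction passed for PHO2 at -0.32 and SQD1 at -0.30 in shoots (edgeR adjusted p 0.0142 and 0.049), beside 3.76% of genes, and for 0 members without double mutant replicate 2 or nlp2-3 replicate 3.

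The effect of each mutation was then compared between tissues, as the log2 fold change in shoots minus that in roots. Every member that passed was more positive in shoots, apart from PHO2 in nlp2-3. In nlp2-2, 3 members passed on the positive side, in nlp2-3 5, in nlp7-1 10 and in the double mutant 12, beside 1.27, 1.41, 3.02 and 11.9% of all genes. On the negative side only PHO2 in nlp2-3 passed, at -0.33 (edgeR adjusted p = 0.0476), beside 1.37, 2.83, 3.38 and 11.3% of genes. At4 differed by 1.67, 1.70, 1.76 and 2.57 over the 4 mutants (edgeR adjusted p 0.00585, 0.00382, 0.00234 and 4.4e-06). SPX1 differed by 1.59, 1.34, 1.48 and 2.26 (edgeR adjusted p 0.0107, 0.0239, 0.00883 and 2.53e-05). PAP17 differed by 1.04, 0.92, 1.46 and 2.20 (edgeR adjusted p 0.0089, 0.013, 7.88e-05 and 2.01e-08). Without nlp2-3 root replicate 1 the count in nlp2-3 was 3 in place of 6.

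**Figure D5:**
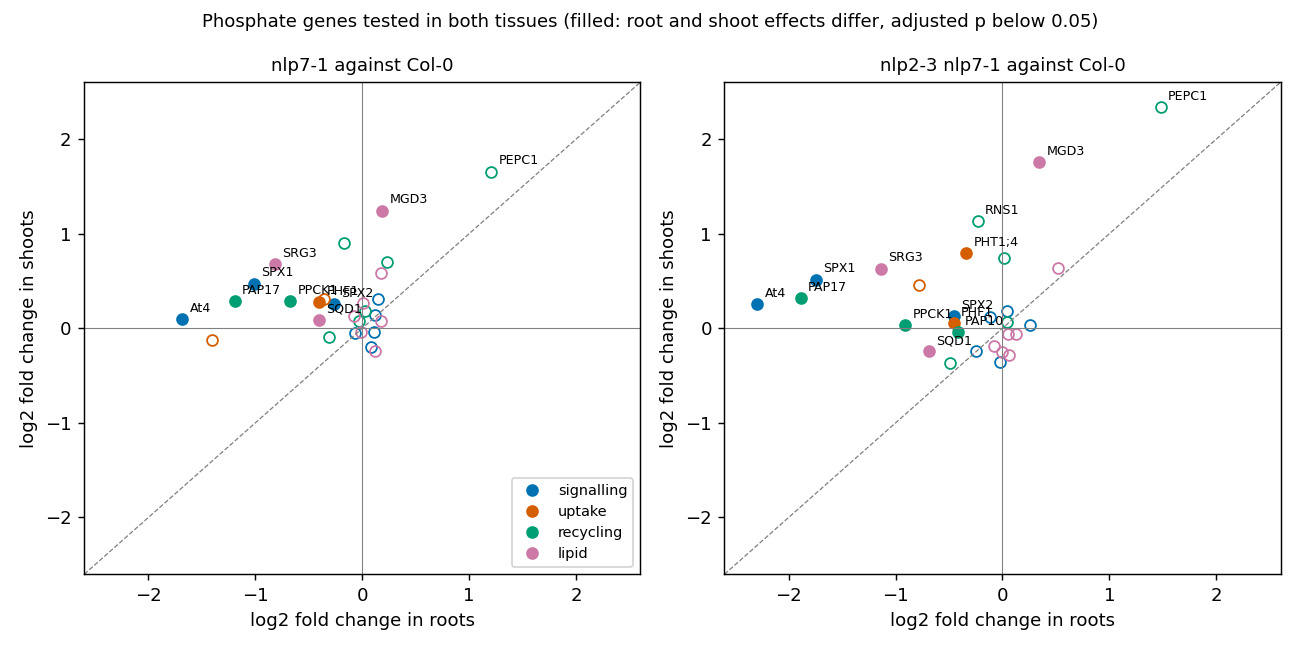
Log2 fold change in roots (x axis) against that in shoots (y axis) in nlp7-1 and the double mutant, for the members tested in both tissues, coloured by role and filled where the tissues differed by the edgeR test; the dashed line marks equal effects. At4, SPX1 and PAP17 lie left of zero and above the dashed line in both panels.

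In the double mutant, PHR1, PAP12 and SQD1 fell in both tissues and PLDZ2 rose in both. SPX1 and PHT1;4 fell in roots and rose in shoots, and the tissues differed for each by the test of the difference, at 2.26 and 1.13 on the log2 scale (edgeR adjusted p 2.53e-05 and 0.000438). Another 7 members, among them At4, PAP17 and SRG3, fell in roots and did not pass in shoots in the main fit. The SRG3 shoot libraries all lay above Col-0, and it passed there with DESeq2, at 0.63 (adjusted p = 0.0344). SRG3 also passed with the groups compared alone (edgeR adjusted p = 0.0108) and with the replicate block (0.0138). With the block PAP17 rose in shoots as well, by 0.31 (edgeR adjusted p = 0.0264). A further 6 that fell in roots, IPS1, PHT1;1, PHT1;2, PHT1;3, PHT1;9 and PPCK2, were not tested in the fit of shoots. SRG3 had a difference between tissues of 1.76 (edgeR adjusted p = 0.000126).

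The promoter motif was read beside these calls. In double mutant roots, 9 of the 18 members that fell, the 1 that rose and 13 of the 17 tested without a call held a P1BS match within 1000 bases. PAP17, PHF1, PAP12 and SQD1, which fell in each mutant root, and MGD3, which rose in shoots, held none in that window.

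Further phosphate genes that are no members were taken as a list of 49, of which 35 were tested in each tissue. In roots 4, 3, 5 and 11 fell and 2, 0, 2 and 7 rose in the mutants, in the order used above, beside 3.91, 3.48, 3.45 and 12.2% of all genes that fell and 3.2, 3.36, 4.5 and 12.9% that rose, with medians of -0.05, -0.09, -0.02 and -0.10. PHO1, which loads phosphate into the xylem, had 801, 659 and 773 CPM in Col-0 roots, 434, 501 and 482 in nlp7-1 and 398, 424 and 440 in the double mutant. It fell by 0.66 and 0.82 on the log2 scale there and by 0.49 in nlp2-2 (edgeR adjusted p 2.88e-05, 3.43e-07 and 0.000715). Its relative PHO1;H1 had 76.5, 70.6 and 67.1 CPM in Col-0, 48.5, 45.6 and 43.6 in nlp2-3, 17.5, 20.8 and 20.6 in nlp7-1 and 7.32, 12.3 and 10.9 in the double mutant, an order without overlap. PHO1;H1 fell by 0.74, 0.64, 1.86 and 2.81 (edgeR adjusted p 0.000727, 0.00271, 4.23e-08 and 1.04e-10). G3PP1, annotated as a permease of glycerol phosphate, fell by 1.15, 1.26, 1.62 and 1.58 in roots (edgeR adjusted p 0.00865, 0.00483, 0.000794 and 0.000239), and PHO1;H3 fell in all 4 as well, by 0.32 to 0.64. NLA2, a relative of NLA, rose by 1.06 in nlp2-2, fell by 1.01 in nlp7-1 and had -1.297 in the double mutant, a fall as well (edgeR adjusted p 0.0135, 0.0342 and 0.00244). Other genes of the list rose in roots. PHT2;1 rose by 0.56 in nlp7-1 and 0.74 in the double mutant (edgeR adjusted p 0.00835 and 0.000194). DGD1 rose by 0.32 and 0.33 in the same mutants (0.0243 and 0.00713). ALMT1 rose by 1.44 in nlp2-2 and 1.08 in the double mutant (0.0259 and 0.0367).

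In shoots 3, 3, 1 and 6 of the 35 fell, beside 2.33, 4.47, 4.93 and 15.6% of all genes, and 0, 0, 2 and 6 rose, beside 0.737, 1.33, 4.84 and 15.5%. The double mutant's shares of this list lay near those of all genes. PHT3;2, a mitochondrial phosphate carrier, had 27, 29 and 27 counts in Col-0 and 1 count in each nlp2-3 library, and fell in each mutant, by 1.93, 4.56, 2.10 and 1.79 on the log2 scale (edgeR adjusted p 0.0141, 2.16e-05, 0.00382 and 0.00348). GDPD6, a glycerophosphodiester phosphodiesterase, rose by 0.96 in nlp7-1 and 1.29 in the double mutant (edgeR adjusted p 0.00197 and 1.25e-05). G3PP1 fell by 0.30 and 0.36 in the shoots of the nlp2 alleles and rose by 0.22 and 0.24 in nlp7-1 and the double mutant (edgeR adjusted p 0.0138, 0.00093, 0.0411 and 0.0088). LPR2 fell by 0.28 in nlp2-2 shoots and by 0.40 in nlp2-3 shoots (edgeR adjusted p 0.00811 and 6.33e-05).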

How the data were processed

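Whole-number counts per gene for 36 libraries were deposited, and a second deposited table holds FPKM, which the authors scaled to gene length and library size. HISAT2, HTSeq and TAIR10 are named per the submitters' processing notes; versions, gene models, filters and the strand setting are not given in the sources used here. The members and lists were chosen with earlier results of these data known.

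Counts were tested in R 4.3.3 with edgeR 4.0.16: filterByExpr (minimum count 10, minimum total 15), TMM scaling and a robust quasi-likelihood fit with 1 mean per genotype to the 18 libraries of a tissue (12 residual degrees of freedom). Effects in shoots minus roots came from 1 fit of all 36 libraries (24 degrees of freedom). Tests were two-sided, and p-values were adjusted by Benjamini-Hochberg over every gene in the fit (20486 for roots, 19137 for shoots, 21554 for both), with a call at an adjusted p under 0.05. The p-values measure the spread between the labelled biological replicates. CPM are counts per 1e+06 after TMM scaling within a tissue. Standard errors were taken as absolute log2 fold change / sqrt(F). Lower bounds used a floor of 3 counts per library and cover counting error only; libraries held 1.82e+07 to 3.17e+07 counts.

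Any member could be named. Values per library were given first for members that passed in at least 1 of the 4 main comparisons of a tissue, in order of role, and of the other phosphate genes up to 8 per tissue that passed in at least 2. Alternatives were DESeq2 1.42.0 size factors, the DESeq2 Wald test, limma 3.58.1 on log2(FPKM + 1), no filter on low counts, a fit of the groups compared alone, a replicate block, Col-0 as the control of nlp2-2, and leaving out each library in turn. Scripts were tested on simulated data. Libraries of the same replicate number deviated together in every pair in nlp2-3 with Col-0 roots (r of 0.235 to 0.381). The number thus appears to pair the samples there, as seen in the data. In nlp2-2 with Col-4 roots r was 0.109 to 0.184. In the other comparisons the correlations were -0.098 to 0.159. They were positive in every pair, at 0.083 to 0.159, in nlp2-2, nlp2-3 and nlp7-1 shoots. They took both signs in nlp7-1 roots and in both tissues of the double mutant. Whether the number pairs samples in these comparisons or in nlp2-2 roots is not settled. The main fit held no term for the replicate number, and the replicate block gives the alternative. Promoters, target sites and coding sequences were read from the RefSeq genome and annotation of TAIR10.1.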

Additional observations from a re-analysis of the deposited data

Results flagged for a closer look

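The interaction of nlp2-3 and nlp7-1, the departure of the double mutant from the sum of the single effects on the log2 scale, passed the edgeR test in roots for IPS1 at 4.01, PHO2 at -0.62 and PS2 at 0.90. The IPS1 value rests on few counts in mutant roots, down to 1 in a library. In shoots the interaction passed for PHO2 at -0.32 and SQD1 at -0.30.

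The effect of a mutation differed between tissues by the edgeR test for the following members, as the log2 fold change in shoots minus that in roots. In nlp2-2 the difference was 1.67 for At4, 1.59 for SPX1 and 1.04 for PAP17. In nlp2-3 it was 1.70 for At4, 1.34 for SPX1, -0.33 for PHO2, 0.41 for PAP12, 0.92 for PAP17 and 0.43 for SQD1. In nlp7-1 it was 6.20 for IPS1, 1.76 for At4, 1.48 for SPX1, 0.51 for SPX2, 0.66 for PHF1, 1.46 for PAP17, 0.95 for PPCK1, 1.05 for MGD3, 0.48 for SQD1 and 1.48 for SRG3. In the double mutant it was 4.89 for IPS1, 2.57 for At4, 2.26 for SPX1, 0.58 for SPX2, 1.13 for PHT1;4, 0.51 for PHF1, 0.37 for PAP10, 2.20 for PAP17, 0.94 for PPCK1, 1.41 for MGD3, 0.45 for SQD1 and 1.76 for SRG3. The IPS1 values rest on 0 to 8 counts per shoot library, with 11 of the 18 shoot libraries at 0. The nlp2-3, nlp7-1 and double mutant comparisons share the Col-0 libraries.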

How the results depend on the processing

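No member reversed under any alternative run in the comparisons of a mutant with its wild type. The other comparisons were followed only by their counts of calls. Of the members that passed, 10 of 11, 11 of 14, 9 of 13 and 16 of 19 passed in every setting in the roots of nlp2-2, nlp2-3, nlp7-1 and the double mutant, and in shoots 0 of 1, 2 of 5 and 5 of 12 in nlp2-3, nlp7-1 and the double mutant. With the replicate block the counts were 13, 13, 14 and 19 in roots and 2, 2, 7 and 14 in shoots, against 11, 14, 13 and 19 and 0, 1, 5 and 12. Fitting the groups compared alone gave 4 in place of 9 for the double mutant against nlp2-3 in roots, and 1 in place of 2 for the interaction in shoots, which was also 1 with DESeq2 size factors or its Wald test and 0 with limma. Limma gave 3 in place of 5 in nlp7-1 shoots, 1 in place of 5 for the double mutant against nlp7-1 in shoots, and 6 in place of 3 for the nlp2-2 effect in shoots minus roots. Col-0 in place of Col-4 gave 2 in place of 0 in nlp2-2 shoots. Why these counts moved was not tested. Leaving out 1 library gave 10 to 11, 12 to 14, 10 to 14 and 17 to 19 in roots and 0 to 0, 0 to 1, 2 to 6 and 8 to 10 in shoots. It gave 0 to 4 for the interaction in roots, 0 to 2 in shoots, 1 to 3 for the double mutant against nlp7-1 in shoots, and 3 to 6 for the nlp2-3 effect in shoots minus roots. The block also brought SPX1 in nlp7-1 roots past the threshold (adjusted p = 0.000196). Depth limits members with few counts, such as IPS1, and in shoots SPX3, PEPC1, PHT1;5, RNS1 and NPC4.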
